A study of Mus musculus with 6 samples.

Results

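The cytosolic ribosomal protein genes were described in floating and attached cells of cultured fetal mouse lung. Members were the protein-coding genes whose symbol starts with Rpl or Rps and a number, plus Rplp0, Rplp1, Rplp2 and Rpsa, without the Rps6k kinases and without symbols ending in a pseudogene tag. This rule used names alone and found 86 of the 31053 genes in the tables. Of these, 77 were the standard genes of the ribosome, 46 for the large (60S) and 31 for the small (40S) subunit. Another 8 were divergent copies of such genes (Rpl3l, Rpl7l1, Rpl10l, Rpl22l1, Rpl36al, Rpl39l, Rps27l and Rps27rt). The remaining member was Rps19bp1, whose symbol meets the rule although it encodes a protein that binds Rps19 and is not itself a ribosomal protein. Counts were found for 85 members in at least 1 library, and all 85 passed the filter on low counts. Rpl10l, a copy of Rpl10 used in male germ cells, had 0 counts in all 6 libraries.

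The cells came from lungs of wild type C57BL6 fetuses at E17, which were dispersed with liberase, frozen in DMSO, and replated on dilute Matrigel (a basement membrane extract). Both fractions grew in HSPC media with mTPO, IL6, SCF, FGF, VEGF and Flt3, and fresh medium was given on day 3. The suspension fraction was the floating cells of days 4, 5 and 6, and the adherent fraction was the attached cells of the same days, which were detached with accutase and sorted for live cells positive for VECAD, an endothelial adhesion protein. Attachment, sorting and detachment thus differ together between the fractions and cannot be told apart. There was 1 library for each fraction on each day, made with the 10x 3' v3 kit, which reads the 3' ends of transcripts in droplets. The tables used here hold read counts for each whole library, without a cell axis.

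Gene counts summed to between 43805361 and 57784974 in the suspension libraries and between 36451255 and 40882433 in the adherent libraries. Levels are given as CPM, a gene's count relative to the TMM-scaled library total, on which 3 counts in a library amounted to between 0.0594 and 0.0755 CPM. The 3 days of a fraction served as its libraries, and the labels do not say whether they were separate cultures, and the p-values cover no more than the scatter among the 6 libraries. Genes of neutrophils summed to between 28895 and 83523 CPM in suspension, against 322 to 1280.2 CPM in adherent libraries, and 16 of 16 were higher in suspension. Macrophage genes summed to between 29071 and 33378 CPM in suspension, against 5984 to 12607 CPM in adherent libraries, and 12 of 14 were higher in suspension. Endothelial genes summed to between 18.5 and 26.6 CPM in suspension, against 817 to 2043 CPM in adherent libraries, and 13 of 14 were lower in suspension. Fibroblast genes summed to between 79.6 and 231 CPM in suspension, against 2278 to 3272 CPM in adherent libraries, and 10 of 10 were lower in suspension. Which cells of the sorted fraction these messages came from was not tested. Of 9 tested genes of red cells, 9 were higher in suspension, with sums of 124 to 366 CPM there against 28.0 to 43.1 CPM in adherent libraries. Of 10 epithelial genes, 5 were lower in suspension, with sums of 13.9 to 273 CPM there against 377 to 1526 CPM in adherent libraries. No marker of these lists was at 0 in all libraries of a fraction, except 1 gene of red cells in the adherent libraries. The part of this difference in cell make-up in the results that follow was not tested. In such whole libraries, fewer cells of a type and less RNA per cell cannot be told apart.

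The cytosolic ribosome is built from ribosomal RNA and about equal amounts of each ribosomal protein, and it translates the messages of the nuclear genome. Ribosomal protein messages are among the most abundant in growing cells and typically start with a run of pyrimidines, the 5' terminal oligopyrimidine (TOP) motif. Through this motif and the protein Larp1 their translation follows the kinase mTOR, while MYC is known to promote their transcription. Blood cell formation is sensitive to their dosage, since mutations of several of them cause Diamond-Blackfan anaemia in humans.

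The starts of a few members that have a pyrimidine run are shown, because the run is typical of such messages. These genes stand at different places in the comparison of the fractions. Each window holds 15 bases before and 15 bases from the RefSeq transcription start (GRCm38.p6), on the gene's own strand. Capitals mark the longest run only, as far as the window reaches. The run of Rpl13a, of 14 bases, goes on past the window.
Rpl13a: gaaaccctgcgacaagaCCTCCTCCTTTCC
Rpl12: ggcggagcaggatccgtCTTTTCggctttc
Rps6: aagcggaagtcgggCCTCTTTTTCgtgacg
Rpl38: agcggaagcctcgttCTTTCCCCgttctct
Rplp2: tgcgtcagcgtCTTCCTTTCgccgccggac
The windows lie at chr7:45128731-45128760 on the minus strand (Rpl13a), chr2:32961697-32961726 on the plus strand (Rpl12) and chr4:86857353-86857382 on the minus strand (Rps6). Those of Rpl38 and Rplp2 lie at chr11:114668565-114668594 and chr7:141447636-141447665, both on the plus strand. The search was for a C followed by at least 4 more C or T that began within 10 bases of the annotated start, on the gene's strand only. It was met by 40 of the 66 members in the RefSeq promoter table, or 60.6%, and by 6111 of all 17492 protein-coding genes there, or 34.9%. The other 26 members, such as Rps4x, Rplp0 and Rpl5, had no such run in this window, and none of them is shown. A further 20 members had no entry in the table.

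The members took a smaller part of the suspension libraries than of the adherent ones on each day. Their share of all gene counts was 10.5%, 10.4% and 9.17% in suspension on days 4, 5 and 6, against 14.7%, 16.7% and 16.7% in adherent libraries. The fractions did not overlap. The mean share was 10.03% ± 0.751 in suspension and 16.03% ± 1.15 in adherent libraries (SD, n = 3 each). The members named Rps, Rps19bp1 among them, made up 48.2% of the members' counts in suspension and 48.0% in adherent libraries. This share of reads was alike in both fractions and does not measure the amounts of the subunits. Mitochondrially encoded genes moved the same way, with 1.33% to 1.58% of gene counts in suspension against 5.78% to 11.4% in adherent libraries. With those genes left out of the total, the members' share was 10.2% in suspension and 17.4% in adherent libraries.

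**Figure D1:**
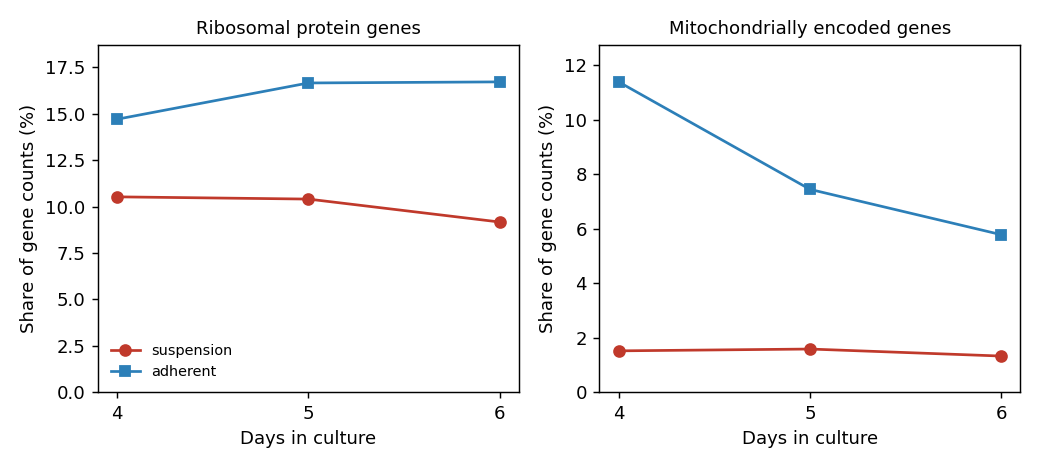
Share of gene counts (%) by days in culture for the ribosomal protein genes (left) and for the mitochondrially encoded genes (right), 1 point per library, suspension as circles and adherent as squares. The ribosomal protein share stayed between 9.17% and 10.5% in suspension and between 14.7% and 16.7% in adherent libraries.

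The comparison of the fractions asked how ribosomal protein messages of floating cells stood against those of the attached cells they were cultured with. Of 85 members tested, 54 passed the test, where 56.8% of all 14912 genes tested did so. Of these, 52 were lower in suspension, or 61.2%, against a background of 29.7%, and 2 were higher, or 2.35%, against a background of 27.1% (edgeR's quasi-likelihood test, Benjamini-Hochberg adjusted p under 0.05). Among the 77 standard genes, 50 were lower and 0 higher, and 76 had a log2 ratio below 0, as had 7472 of all 14912 genes. Their median log2 ratio of suspension over adherent was -0.45, with a range of -1.11 to 0.39, where the median of all genes was -0.00. Of the 46 large subunit genes 31 were lower (median -0.51), and of the 31 small subunit genes 19 were lower (median -0.43). The 3 suspension libraries all lay below the 3 adherent libraries for 63 members, or 74.1%, against a background of 34.4%, and all above them for 3 members, or 3.53%, against 33.4%. Of the 2 higher members, Rpl3l passed the low count filter through the suspension libraries alone. Without the adherent library of day 5, the count of lower members was 33 of 85, where 3678 of all 15268 genes tested were lower. With the day as a block, 42 members were lower and 3 higher, where 4343 and 4074 of all 14912 genes were.

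**Figure D2:**
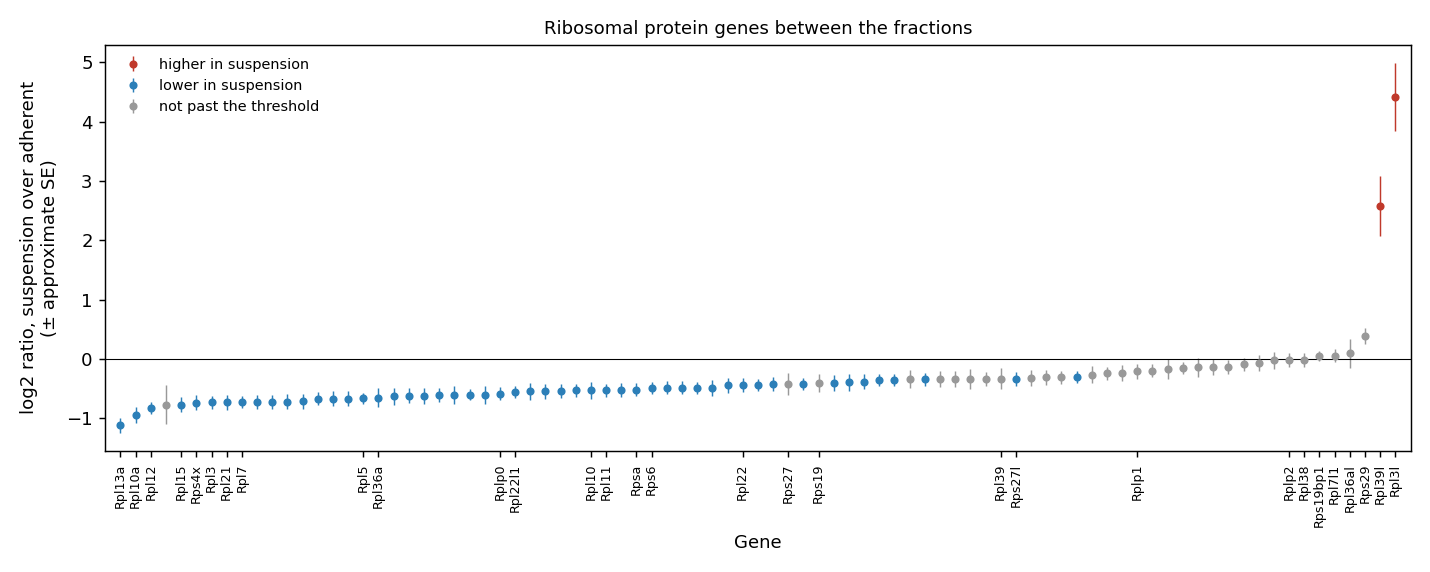
log2 ratio of suspension over adherent with its approximate standard error for each of the 85 tested members, ordered by ratio and coloured by the call of edgeR's test at an adjusted p of 0.05, with names for most members described in the text. Nearly all members lie below 0, with Rpl13a lowest at -1.11, and Rpl39l and Rpl3l stand apart at 2.58 and 4.41.

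Rpl13a, a large subunit protein that in human monocytic cells can also leave the ribosome and silence inflammatory messages, had the lowest ratio. It had 118, 114 and 113 CPM in the suspension libraries of days 4, 5 and 6, against 218, 289 and 242 CPM in the adherent libraries. Its suspension values were nearly level and all lay below the lowest adherent value. The log2 ratio was -1.11 ± 0.13 (adjusted p = 0.000945), and the mean was 2.16 times as high in adherent cells. Rpl10a, which forms the L1 stalk where spent tRNA leaves the ribosome, had 695, 694 and 605 CPM in suspension, against 1083, 1334 and 1411 CPM in adherent libraries. The fractions were separate on every day, and the log2 ratio was -0.94 ± 0.14 (adjusted p = 0.00208).

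Rpl12, at the base of the stalk that binds translation factors, had 1827, 1902 and 1800.1 CPM in suspension, against 3080.3, 3266 and 3416 CPM in adherent libraries. No suspension value came near an adherent one, and the log2 ratio was -0.82 ± 0.10 (adjusted p = 0.00129). Rpl15, a core protein of the large subunit, had 171, 132 and 154 CPM in suspension, against 268, 262 and 246 CPM in adherent libraries. Its fractions did not overlap either, with a log2 ratio of -0.77 ± 0.12 (adjusted p = 0.00266). Rpl3, which reaches towards the site of peptide bond formation, had 1417, 1385 and 1273 CPM in suspension, against 2106, 2398 and 2269.7 CPM in adherent libraries. That separation gave a log2 ratio of -0.73 ± 0.11 (adjusted p = 0.00218). Rpl7 and Rpl21, also of the large subunit, each had a log2 ratio of -0.73 without overlap (adjusted p = 0.00169 for Rpl7 and 0.00352 for Rpl21). The X-linked small subunit gene Rps4x had 1671, 1668 and 1492 CPM in suspension, against 2361, 2791 and 2882 CPM in adherent libraries, and had the lowest ratio of the 31 standard 40S genes. Its log2 ratio was -0.73 ± 0.13 (adjusted p = 0.00351).

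Of the 3 stalk proteins, which recruit elongation factors, 1 was lower in suspension, where 50 of the 77 standard genes and 29.7% of all genes were. Rplp0, the base of the stalk, had 2331, 2362 and 2137 CPM in suspension, against 3238, 3557 and 3456 CPM in adherent libraries. It was lower in suspension without overlap, with a log2 ratio of -0.59 ± 0.11 (adjusted p = 0.00458). Its acidic partner Rplp1 had 3682, 3659 and 3621 CPM in suspension, against 3640.1, 4382 and 4647 CPM in adherent libraries. For Rplp1 the adherent library of day 4 fell inside the suspension range, and the log2 ratio of -0.21 ± 0.13 did not pass (adjusted p = 0.208). The other acidic partner, Rplp2, had 1854, 1747 and 1761 CPM in suspension, against 1596, 1861 and 1959 CPM in adherent libraries. Its fractions overlapped, with a log2 ratio of -0.01 ± 0.12 (adjusted p = 0.928). Whether the ratios of Rplp0, Rplp1 and Rplp2 differ from each other was not tested as such.

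Of 6 members picked for known further roles, for late assembly or for anaemia, 5 were lower in suspension. Of all 77 standard genes 50 were lower, and 29.7% of all genes tested. Rpl5 and Rpl11, which bind the 5S ribosomal RNA and restrain Mdm2 when assembly is disturbed, had log2 ratios of -0.66 ± 0.09 and -0.53 ± 0.11 (adjusted p = 0.00185 and 0.0083). Rpl5 had 567, 528 and 518 CPM in suspension, against 829, 868 and 849 CPM in adherent libraries. Both genes were separate between fractions. Rpl10, which joins the large subunit in the last steps of its maturation, had a log2 ratio of -0.53 ± 0.15 (adjusted p = 0.0208), a call that was lost when the adherent library of day 5 was left out. Rpsa, also known as a laminin receptor, had 1985, 1846 and 1710.1 CPM in suspension, against 2691, 2746 and 2489 CPM in adherent libraries (log2 ratio -0.52 ± 0.11, adjusted p = 0.00848). Rps6, the substrate of the S6 kinases downstream of mTOR, had 371, 335 and 318 CPM in suspension, against 473, 502 and 463 CPM in adherent libraries. Its fractions did not overlap, with a log2 ratio of -0.49 ± 0.10 (adjusted p = 0.00743). Rps19, the gene most often mutated in Diamond-Blackfan anaemia in humans, had 1148, 1049.6 and 1183 CPM in suspension, against 1248, 1470.3 and 1759 CPM in adherent libraries. All its suspension values lay below the adherent ones, but the log2 ratio of -0.41 ± 0.15 did not pass (adjusted p = 0.0577).

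Rps29 was the only standard member with a log2 ratio above 0. This zinc-binding small subunit protein had 595, 583 and 662 CPM in suspension, against 399, 462 and 543 CPM in adherent libraries. The suspension values all lay above the adherent ones, and the log2 ratio was 0.39 ± 0.14 (adjusted p = 0.0514). With the day as a block the adjusted p was 0.0401. Rpl38, whose loss of function disturbs the patterning of the skeleton in mice, had 763, 685 and 652 CPM in suspension, against 627, 746 and 741 CPM in adherent libraries. Its fractions overlapped, with a log2 ratio of -0.01 ± 0.12 (adjusted p = 0.949).

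A second fit scaled each library to its ribosomal protein counts, which asks how a member's place among the ribosomal protein messages differed apart from the shift they share. On this scale 14 of 85 members took a larger place in suspension, or 16.5%, against a background of 45.4% of all genes, and 9 a smaller one, or 10.6%, against a background of 21%. All genes together were shifted upwards on this scale by a median log2 of 0.44, which follows from how it is set, while the median member was at 0.01. With the day as a block 10 members were higher and 3 lower, where 6642 and 3162 of all 14912 genes were. Without the suspension library of day 4 the counts were 7 higher and 2 lower, where 6129 and 3128 of all 15428 genes were. They were 6 higher and 3 lower without any 1 of the other suspension libraries or the day 5 adherent library. In those fits 5386 to 5665 of the 15268 to 15469 genes tested were higher and 2692 to 2898 lower. Those with a smaller place included Rpl13a, Rpl10a, Rpl12, Rpl3, Rps4x, Rpl7, Rpl6 and Rpl21. Their lowest ratio was -0.67 ± 0.12 for Rpl13a (adjusted p = 0.00298). The ratios of Rpl10a and Rpl12 were -0.49 ± 0.10 (adjusted p = 0.00542) and -0.38 ± 0.10 (adjusted p = 0.013). The call of Rpl12 was lost without the suspension library of day 4 (adjusted p = 0.0558). Rps4x, Rpl3 and Rpl7, with ratios of -0.29, -0.29 and -0.29, did not pass with the day as a block (adjusted p = 0.0662, 0.0674 and 0.0839).

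Among those with a larger place in suspension, Rps29 made up 0.565% of the ribosomal protein counts in suspension and 0.315% in adherent libraries, a log2 ratio of 0.84 ± 0.12 (adjusted p = 0.00124). Rplp2 made up 1.65% of them in suspension and 1.22% in adherent libraries, a log2 ratio of 0.43 ± 0.09 (adjusted p = 0.0064). For Rpl38 the figures were 0.644% in suspension and 0.477% in adherent libraries, with a log2 ratio of 0.43 ± 0.10 (adjusted p = 0.00902). Also larger in suspension were Rpl35a, Rps28, Rps25, Rps21, Rps27a, Rpl41 and Rps12, with log2 ratios of 0.29 to 0.43. The copies Rpl3l, Rpl39l and Rpl7l1 and the non-ribosomal Rps19bp1 completed the 14. Rpl3l passed the low count filter through the suspension libraries alone, so its call supports nothing. Rps19bp1 had 64.1, 61.3 and 62.7 CPM in suspension, against 63.4, 59.2 and 58.8 CPM in adherent libraries, and did not differ past the threshold on the common scale (log2 ratio 0.05 ± 0.08, adjusted p = 0.619).

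Members that encode longer proteins tended to have lower ratios, a relation noticed after the values had been seen. Over the 77 standard genes, the log2 ratio between fractions and the log10 number of encoded residues had a Pearson correlation of -0.60 and a Spearman correlation of -0.64. The points are genes measured in the same 6 libraries and are not independent replicates. By day the Spearman correlation was -0.77 on day 4, -0.60 on day 5 and -0.45 on day 6. A relation to length was also present within each fraction, for the log2 ratio of day 6 over day 4. It was -0.58 (Pearson) and -0.64 (Spearman) in adherent libraries, and -0.34 and -0.35 in suspension. The relation is therefore not particular to the comparison of the fractions. Among the 39 genes that encode 25 to 152 residues, 15 were lower in suspension, or 38.5% (median log2 ratio -0.33), and among the 38 that encode 156 to 419 residues, 35 were lower, or 92.1% (median -0.59), where 29.7% of all genes were. On the ribosomal protein scale, 9 of the shorter genes were higher and 0 lower in suspension, and 1 of the longer was higher and 9 were lower, where 45.4% of all genes were higher and 21% lower. Over the 13757 protein-coding genes tested the correlation was -0.06 (Pearson) and -0.04 (Spearman). Over 137 other genes in the members' length range with a mean of at least 500 CPM it was -0.07 (Pearson) and 0.02 (Spearman).

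**Figure D3:**
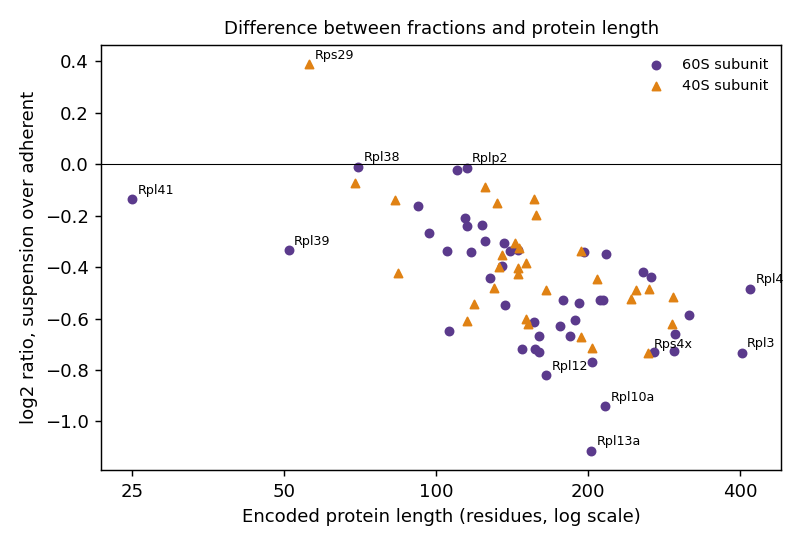
log2 ratio of suspension over adherent against the length of the encoded protein (residues, log axis) for the 77 standard ribosomal protein genes, 60S as circles and 40S as triangles. Ratios run from 0.39 for the short Rps29 to -1.11 for Rpl13a, and 76 of the 77 lie below 0.

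Of 8 tested genes outside the standard 77 (7 copies and Rps19bp1), 2 were higher and 2 lower in suspension, or 25% each, near the 27.1% and 29.7% of all genes. The higher ones include Rpl3l, which passed the low count filter through the suspension libraries alone. Rpl39l is the copy of Rpl39, a protein at the exit tunnel of the large subunit, that is known from male germ cells in mice. Its coding sequence is shown beside that of Rpl39, from the start to the stop codon (GENCODE M21 transcripts), to show how far the copy has diverged. Capitals mark the bases at which they differ.
Rpl39l: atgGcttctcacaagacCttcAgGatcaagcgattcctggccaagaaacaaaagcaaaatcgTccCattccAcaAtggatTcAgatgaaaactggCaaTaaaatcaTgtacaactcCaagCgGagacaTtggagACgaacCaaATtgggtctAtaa
Rpl39: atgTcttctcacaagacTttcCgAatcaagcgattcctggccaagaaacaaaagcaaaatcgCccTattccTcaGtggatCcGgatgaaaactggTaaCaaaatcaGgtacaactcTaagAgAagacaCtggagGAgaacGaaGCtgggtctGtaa
Over these 156 bases 23 differ, an identity of 85.3%. Without its stop codon the Rpl39l sequence lies at chr16:10174310-10174462 on the plus strand, and that of Rpl39, interrupted by introns, at chrX:37082704-37085127 on the minus strand (GRCm38). Of the 50-base windows in the last 300 bases of the annotated transcript used, 0 were found in another gene for Rpl39l and 21.1% for Rpl39.

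Rpl39l had 13.6, 5.60 and 14.6 CPM in the suspension libraries of days 4, 5 and 6, against 2.61, 0.931 and 2.10 CPM in the adherent libraries. The lowest suspension value lay above the highest adherent one. Its log2 ratio was 2.58 ± 0.51 (adjusted p = 0.00606), on 561, 235 and 739 reads in suspension and 113, 37 and 90 reads in adherent libraries. Rpl39 itself had 686, 653 and 673 CPM in suspension, against 642, 884 and 1010.5 CPM in adherent libraries. The adherent library of day 4 lay below all the suspension libraries, and the log2 ratio was -0.33 ± 0.18 (adjusted p = 0.146).

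Rpl3l, the copy of Rpl3 known from heart and skeletal muscle, had 1.86, 2.36 and 4.08 CPM in suspension, against 0.0461, 0.151 and 0.186 CPM in adherent libraries. The adherent values rest on 2, 6 and 8 reads and the suspension values on 77, 99 and 206 reads. It passed the low count filter through the suspension libraries alone and day 4 of the adherent fraction lies under 3 counts, so its log2 ratio of 4.41 is a description and its call supports nothing. Msrb1, the gene that follows Rpl3l downstream on the same strand, had 728 ± 27.4 CPM in suspension and 148 ± 41.5 CPM in adherent libraries (SD, n = 3 each), with a log2 ratio of 2.30 (adjusted p = 0.000609). The part of reads from Msrb1 in the counts of Rpl3l was not tested.

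Rpl22l1 and its parent Rpl22, which is needed for the development of T cells and restrains Rpl22l1 in mice, were lower together. Rpl22l1 had 444, 408 and 385 CPM in suspension, against 613, 597 and 615 CPM in adherent libraries. It had no overlap and a log2 ratio of -0.56 ± 0.10 (adjusted p = 0.00378). Rpl22 had 1102, 1023 and 1005 CPM in suspension, against 1231, 1488 and 1530.0 CPM in adherent libraries, a log2 ratio of -0.44 ± 0.12 (adjusted p = 0.0217). With the day as a block the adjusted p of Rpl22 was 0.0585, and it also missed the threshold without the suspension or the adherent library of day 5 (highest adjusted p 0.0866).

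Rps27l, a copy of Rps27 that p53 induces in human cells, had 795, 678 and 750.1 CPM in suspension, against 964, 997 and 840.1 CPM in adherent libraries. Its values were separate but close, with a log2 ratio of -0.33 ± 0.12 (adjusted p = 0.0494). The adjusted p was 0.0892 with the day as a block, and the call was also lost without any 1 of 5 of the 6 libraries, the exception being the adherent library of day 6. Rps27 had 435, 434 and 443 CPM in suspension, against 441, 596 and 721 CPM in adherent libraries. The adherent library of day 4 lay within the suspension range, and the log2 ratio was -0.42 ± 0.18 (adjusted p = 0.09). Rps27rt, a further copy of Rps27, had 162, 91 and 228 reads in suspension and 332, 191 and 242 reads in adherent libraries, with a log2 ratio of -0.77 ± 0.33 (adjusted p = 0.0875).

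Rpl36al, Rpl7l1 and their parents differed in the outcome of the test, which is not a test of the difference between them. Rpl36al had 16.8, 10.6 and 17.3 CPM in suspension, against 16.9, 11.5 and 13.6 CPM in adherent libraries. The ranges lay over each other (log2 ratio 0.09 ± 0.24, adjusted p = 0.758). Rpl36a had 615, 602 and 557 CPM in suspension, against 742, 968 and 1074 CPM in adherent libraries, with a log2 ratio of -0.65 ± 0.16 (adjusted p = 0.0124). Rpl7l1 had 89.3, 85.5 and 88.7 CPM in suspension, against 95.5, 82.9 and 75.2 CPM in adherent libraries. Its suspension values lay inside the adherent range (log2 ratio 0.06 ± 0.11, adjusted p = 0.693). Rpl7 had 574, 538 and 527 CPM in suspension, against 841, 939 and 934 CPM in adherent libraries.

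**Figure D4:**
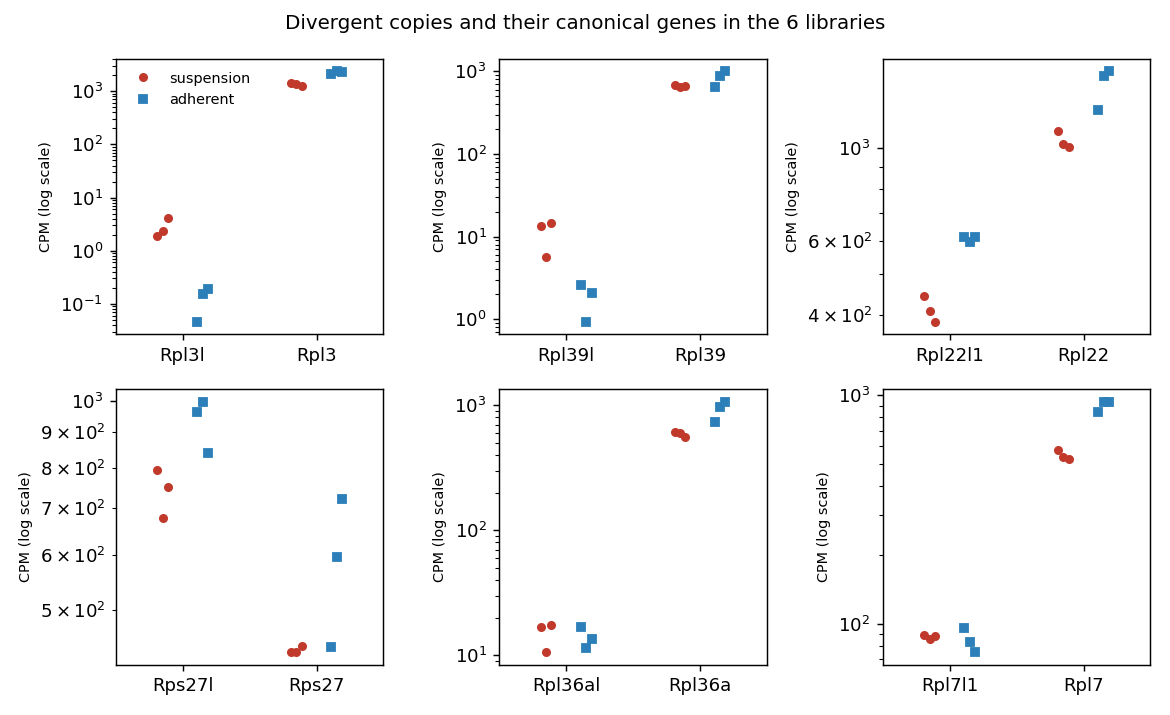
CPM (log axes with their own range in each panel) of 6 divergent copies and their standard genes, suspension as circles and adherent as squares, each group from left to right for days 4, 5 and 6. Rpl3l and Rpl39l are higher in suspension (1.86 to 4.08 CPM against 0.0461 to 0.186 CPM, and 5.60 to 14.6 CPM against 0.931 to 2.61 CPM), while Rpl22l1 is lower (385 to 444 CPM against 597 to 615 CPM).

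Many members share their 3' sequence with pseudogenes or copies, which bears on the counts since reads that map to several places were kept on a separate line. The search took the last 300 bases of 1 annotated transcript per gene, which was up to 5179 bases long. Whether the reads came from that end was not tested. Of the 86 members, 59 had at least 1 shared 50-base window there, 53 of them with a pseudogene. In this stretch, 44 had most of their windows shared, and 27 had none. Counts of the members with shared sequence are therefore uncertain. Among the 23 standard genes without any shared window, 21 were lower in suspension, or 91.3% (median log2 ratio -0.54). Among the 41 with most windows shared, 25 were lower, or 61.0% (median -0.44), where 29.7% of all genes were. Standard genes with some but not most windows shared are in neither group, and most of them did not pass. The calls thus did not fall steadily with sharing. Across the 77 standard genes the ratio and the shared percentage had a Pearson correlation of 0.10, given as a description. Reads mapping to several places made up 13.9% to 15.5% of reads in suspension, against 18.7% to 22.6% in adherent libraries, and their part in the ratios was not tested.

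The median gap between the fractions was wider on the later days. The median log2 ratio of suspension over adherent over the 77 standard genes was -0.23 on day 4, -0.49 on day 5 and -0.60 on day 6, and 62, 76 and 76 genes lay below 0. Over all genes tested, the medians were 0.00, -0.01 and 0.01, and 49.7%, 50.4% and 49.7% lay below 0. In suspension 37 of the 77 genes were lower on each later day and 0 were higher on each later day, where 24.9% and 24.1% of all genes had these orders. In adherent libraries 56 genes were higher on each later day and 1 was lower on each later day, where 33.5% and 21.9% of all genes did so. The median log2 ratio of day 6 over day 4 was -0.09 in suspension and 0.28 in adherent libraries. The gap on day 4 also coincided with the highest mitochondrially encoded share of an adherent library, 11.4%.

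**Figure D5:**
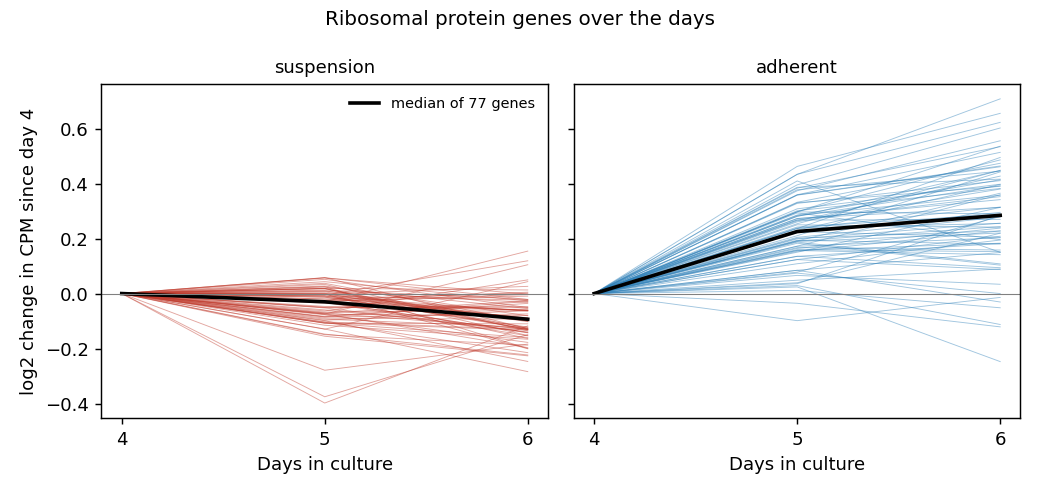
log2 change in CPM since day 4 by days in culture for the 77 standard ribosomal protein genes in suspension (left) and adherent libraries (right), 1 thin line per gene and the median as a thick line. The median reached -0.09 in suspension and 0.28 in adherent libraries on day 6.

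With 1 library for each fraction and day, no single member passed edgeR's tests of these trends. For the slope per day that the fractions have in common, edgeR's quasi-likelihood test called 0 members, against a background of 0.0134% of genes, and 1 member (Rpl3l) had an unadjusted p under 0.05, against a background of 20.4%. DESeq2 called 0 members as well, against a background of 9.9%, with 3 at an unadjusted p under 0.05, against 23.7%. For the difference of slopes, suspension minus adherent, edgeR called 0 members, against a background of 0.516% of genes (0.463% lower and 0.0536% higher). There were 23 members at an unadjusted p under 0.05, all with a more negative slope in suspension, or 27.1%, against a background of 14.4%, and the smallest adjusted p was 0.137 for Rps27. DESeq2's Wald test called 10 members, or 11.8%, against a background of 5.53%, all with the lower slope in suspension, among them Rps21, Rpl39, Rps27, Rpl36a, Rpl37a, Rpl23, Rpl28, Rps28 and Rps14. The slope difference was below 0 for 76 of the 77 standard genes, with a median of -0.19 per day on the log2 scale. It was below 0 for 8959 of all 14912 genes, with a median of -0.07. Rps27 may serve as an example, at 435, 434 and 443 CPM on days 4, 5 and 6 in suspension against 441, 596 and 721 CPM in adherent libraries. These orders and slopes use the same libraries as the comparison of the fractions.

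Genes tied to the same machinery were described by lists of textbook members. Of 17 further genes with TOP messages, mainly translation factors, 14 were lower in suspension, or 82.4% against 29.7% of all genes, and 0 higher, with a median log2 ratio of -0.47. Eef1a1, which delivers tRNA to the ribosome, had 1119.7 ± 42.7 CPM in suspension and 1855 ± 161 CPM in adherent libraries (SD, n = 3 each), a log2 ratio of -0.73 (adjusted p = 0.0024). Npm1, a nucleolar chaperone, had 1056 ± 150.4 CPM in suspension and 1641 ± 209.7 CPM in adherent libraries, a log2 ratio of -0.64 (adjusted p = 0.0144). Tpt1, an abundant TOP message, was an exception at 4331 ± 265 CPM in suspension and 4411 ± 647 CPM in adherent libraries (log2 ratio -0.03, adjusted p = 0.891). Among ribosomal proteins with other names, Rack1, a scaffold on the small subunit, had 1623 ± 40.04 CPM in suspension and 2436 ± 143 CPM in adherent libraries (log2 ratio -0.59, adjusted p = 0.00389). Fau, whose ribosomal protein is made as a fusion to a relative of ubiquitin, had a log2 ratio of 0.16 and did not pass (adjusted p = 0.439).

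The list of ribosome assembly factors had calls in both directions. Of its 34 genes 3 were higher and 3 lower in suspension, or 8.82% each, against 27.1% and 29.7% of all genes, with a median log2 ratio of 0.01. Nhp2, a protein of the particles that modify ribosomal RNA, was higher at 230.3 ± 21.7 CPM in suspension and 149 ± 16.2 CPM in adherent libraries (log2 ratio 0.63, adjusted p = 0.00598). Of 77 tested proteins of the mitochondrial ribosome, 18 were higher and 6 lower in suspension, or 23.4% and 7.79%, with a median of 0.11. All 13 mitochondrially encoded genes of the list were lower in suspension, with a median log2 ratio of -2.23.

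Of 18 genes of the mTOR route that controls TOP messages, 6 were higher and 2 lower in suspension (median 0.12), where 27.1% and 29.7% of all genes were. Eif4ebp1, a translation repressor that mTOR inactivates, was lower at 171 ± 19.6 CPM in suspension and 246 ± 15.2 CPM in adherent libraries (log2 ratio -0.53, adjusted p = 0.0093). Larp1, which binds TOP messages, had 69.1 ± 6.81 CPM in suspension and 62.1 ± 5.71 CPM in adherent libraries (log2 ratio 0.15, adjusted p = 0.298). Of 6 genes of the MYC network 3 were higher and 3 lower, or 50% each. Myc itself had 21.3 ± 0.721 CPM in suspension and 26.2 ± 2.26 CPM in adherent libraries, a log2 ratio of -0.30 (adjusted p = 0.0448). Of 10 genes of the p53 response, which free ribosomal proteins can trigger through Mdm2, 5 were lower and 0 higher in suspension (median -0.66), where the lower ones make up 50% against 29.7% of all genes. Cdkn1a, a cell cycle inhibitor, had 227 ± 46.3 CPM in suspension and 365 ± 84.3 CPM in adherent libraries (log2 ratio -0.69, adjusted p = 0.0337).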

How the data were processed

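Read counts per gene, as deposited by the authors, were available for each of the 6 whole libraries. Per the submitters' processing notes, bcl2fastq, Cell Ranger and STARsolo were used with mm10. Their versions and the annotation were not given in the sources used here. Reads are not collapsed to molecules, so floors cover counting error alone. Sense counts were used, and symbols came from GENCODE M21, which held 31011 of 31053 identifiers. The low count filter was filterByExpr (edgeR 4.0.16, on limma 3.58.1 and R 4.3.3), and 14912 genes passed it.

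Libraries were scaled by TMM, and fractions were compared with edgeR's quasi-likelihood test (4 residual degrees of freedom). A common slope per day had 3 and the difference of slopes 2. Another fit used the summed counts of the members as library size. Benjamini-Hochberg adjustment ran over all genes tested, with a threshold of 0.05. The ± values after log2 ratios are approximate standard errors (the size of the log2 ratio over the square root of F). Alternatives were other scalings and filters, reads on either strand, thinned counts, DESeq2 1.42.0, the day as a block and leaving out each library. The scripts were tested on simulated data.

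By the labels, the fractions were collected on the same days, which pairs them. Deviations from the fraction means correlated across genes at 0.338, 0.14 and 0.282 for the same day and at -0.305 to 0.0134 for different days. Members and lists were chosen with earlier results of these data known. Named members are the 8 highest and 8 lowest log2 ratios past the threshold in the fraction comparison, the 6 highest and 6 lowest on the members' own scale, and a list of paralog pairs and well-known members. Other lists add their 2 called genes with the highest CPM, of which only some are printed. Msrb1 and the genes listed by name for a count were added after values were seen. A few genes are not reported here by name.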

Additional observations from a re-analysis of the deposited data

How the results depend on the processing

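Between the fractions, 52 members were lower and 2 higher in suspension. Leaving out each library gave 33 to 65 lower and 2 to 3 higher, the lowest count without the adherent library of day 5. Of the 15268 to 15469 genes tested in these fits, 3678 to 4478 were lower and 2924 to 4180 higher. The day as a block gave 42 lower and 3 higher, and no filter on low counts 45 lower and 2 higher. Over all genes, the block gave 4343 lower and 4074 higher of 14912. No filter gave 4548 lower and 4001 higher of 22019. With at least 10 CPM in 3 libraries, which removes Rpl3l and Rpl39l from the test, 0 members were higher, where 2365 of 8685 genes were. On the scale of the members' own counts, no filter on low counts gave 9 higher and 3 lower, the day as a block 10 higher and 3 lower, and leaving out each library 6 to 15 higher and 2 to 9 lower. Over all genes, no filter gave 6714 higher and 3331 lower of 22019, and the block 6642 and 3162 of 14912. Leaving out each library gave 5386 to 7525 genes higher and 2692 to 3249 lower. The cause was not tested. The slope difference had 0 members called by edgeR and 10 lower by DESeq2. The adherent share of gene counts was 17.4% without mitochondrially encoded genes, and leaving out each library gave 9.79% to 10.5% in suspension and 15.7% to 16.7% in adherent libraries.

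For the named members no value past the threshold changed sign. Values near 0 that did not pass changed sign under an alternative for 5 members between the fractions (Rps19bp1, Rpl7l1, Rpl36al, Rplp2 and Rpl38, up to 0.255 from 0 on the log2 scale) and for 6 on the members' own scale (Rpl22, Rps27, Rps27l, Rpsa, Rps6 and Rps19, up to 0.209). Under the alternatives, 11 values between the fractions lost the threshold and 15 gained it, and on the members' own scale 36 lost it and 5 gained it. Rps29 passed in 3 of 14 alternatives, Rps27l in 7 and Rpl22 in 11. On the members' own scale Rpl3 and Rpl21 passed in 5 of 12, and Rps4x, Rpl7 and Rpl7l1 in 6. With the day as a block, the calls named above for Rps29, Rpl22, Rps27l, Rps4x, Rpl3 and Rpl7, and that of Rpl21 on the members' own scale (adjusted p = 0.0786), were the changed ones among the named members. Counts were low for Rpl3l, with 2 to 8 reads in adherent libraries, and Rpl10l had 0 reads.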

Other observations

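Reads on the antisense strand of the members amounted to 0.196% to 0.215% of the member counts in suspension and 0.148% to 0.196% in adherent libraries, against 6.51% to 7.30% of the counts in suspension and 6.24% to 6.65% in adherent libraries over all genes.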
